A study of Mus musculus with 4 samples.

Results

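The 31 genes described here encode the enzymes of glycolysis from hexokinase to lactate dehydrogenase, the PFKFB enzymes that tune phosphofructokinase, the main glucose transporters Slc2a1 and Slc2a3, and the monocarboxylate transporters of lactate with their chaperone Bsg. They were chosen by name as a pathway, with earlier results of these data known but with no measured value in the rule, and matched to the Ensembl identifiers of the tables, Pkm2 being the symbol used here for the pyruvate kinase gene also called Pkm. All 31 had counts in the raw table of 37620 genes, and 30 were among the 15462 genes kept by the authors' filter of low expression. Hk3 was the gene not kept, with 4 raw counts in WT serum/LIF, 2 in Cripto KO serum/LIF and 0 in both F/A libraries, where a count of 0 allows up to 0.197 CPM in WT and 0.381 CPM in Cripto KO. The cells were R1 mouse embryonic stem cells (ESCs) of the 129/Sv strain, either wild type (WT) or lacking Cripto (Cripto KO), the gene Tdgf1 that encodes a co-receptor of Nodal at the cell surface. Each genotype was grown in serum/LIF, which holds ESCs in the naive state, or in F/A, a culture used to convert ESCs into epiblast stem cells (EpiSCs). For F/A, cells were seeded at low density in serum-free N2B27 with Activin A at 20 ng per ml and bFGF for 6 days. The name F/A gives the culture and not the state that the cells reached. The base medium, the serum, LIF and the growth factors all differed between serum/LIF and F/A. The seeding density and days in culture of the serum/LIF cells are not given in the sources used here and may have differed too. The shares of all these in a difference cannot be told apart. The study held more than 1 Cripto KO clone, and which of them was sequenced is not given in the sources used here. Each of the 4 conditions is 1 library, so there is no replicate error, no test was possible and no p-value is given.

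Glycolysis splits glucose into pyruvate in the cytosol. Cells take glucose up through GLUT transporters, trap it as a phosphate with hexokinase, commit it at phosphofructokinase and gain ATP at phosphoglycerate kinase and pyruvate kinase, and lactate dehydrogenase then turns pyruvate into lactate that leaves through monocarboxylate transporters. Most steps are served by isoenzymes from separate genes whose use differs between tissues. Naive ESCs are known to draw on both glycolysis and respiration, whereas EpiSCs rely mostly on glycolysis. The study followed the ESC→EpiSC transition in WT and Cripto KO cells to ask what Cripto does while ESCs become primed.

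Upstream sequences are shown for abundant genes that part from their relatives in F/A, picked after their values were seen, Slc16a1 among the lactate transporters, Ldha and Ldhb of lactate dehydrogenase, and Pfkp of phosphofructokinase. Each is the 250 bases before a RefSeq start site, taken from a RefSeq table of build GRCm38.p6, printed 5′ to 3′ on the gene's strand and placed on NCBIM37 (mm9) by an exact match at chr3:104442337-104442586 (plus strand), chr7:54100924-54101173 (plus strand), chr6:142456478-142456727 (minus strand) and chr13:6648018-6648267 (minus strand), in the order of the lines. Capitals mark ACGTG on either strand, the letters shared by a form of the element of hypoxia-inducible factors and by the E box CACGTG of Myc-type factors.
Slc16a1: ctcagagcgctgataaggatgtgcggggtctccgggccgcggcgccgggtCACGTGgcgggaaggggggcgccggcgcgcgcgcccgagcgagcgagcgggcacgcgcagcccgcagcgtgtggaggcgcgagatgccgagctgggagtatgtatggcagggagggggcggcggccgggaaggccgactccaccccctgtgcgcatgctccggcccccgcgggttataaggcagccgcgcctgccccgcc
Ldha: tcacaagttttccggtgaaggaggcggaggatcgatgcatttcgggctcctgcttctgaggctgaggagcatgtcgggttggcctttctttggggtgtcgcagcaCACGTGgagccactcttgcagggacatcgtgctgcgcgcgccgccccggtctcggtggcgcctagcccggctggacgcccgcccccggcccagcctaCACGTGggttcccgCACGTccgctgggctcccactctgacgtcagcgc
Ldhb: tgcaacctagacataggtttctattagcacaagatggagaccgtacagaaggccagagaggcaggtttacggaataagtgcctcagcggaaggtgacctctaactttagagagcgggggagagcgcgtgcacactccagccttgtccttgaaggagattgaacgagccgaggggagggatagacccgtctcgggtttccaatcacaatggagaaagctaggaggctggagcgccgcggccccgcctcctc
Pfkp: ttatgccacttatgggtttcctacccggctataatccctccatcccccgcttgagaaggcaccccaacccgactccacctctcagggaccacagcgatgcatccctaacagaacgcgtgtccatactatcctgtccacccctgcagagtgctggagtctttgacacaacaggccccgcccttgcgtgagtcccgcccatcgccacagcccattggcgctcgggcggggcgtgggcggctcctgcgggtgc

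Ldha has 2 windows in the table, of which the other holds no ACGTG. The printed Ldha window lies in a stretch with no annotated exon, and its start site is 4329 bases inside the annotated gene. This window held 5 matches of ACGTG, counting both strands of each CACGTG. In the Slc16a1 window there were 2 matches, both from the same CACGTG, 200 bases before the start site. The windows of Ldhb and Pfkp held none, which says only that these letters are not in these windows. Other forms of the element were not searched for. Of the 31 genes, 29 had an entry in the table, 13 of the 29 held ACGTG in at least 1 of their windows and 5 of the 29 held CACGTG. By window the numbers were 17 of 47 and 5 of 47, and over all 32851 windows of that length the shares were 16.6% for ACGTG and 6.02% for CACGTG. Some genes had several overlapping windows, so the counts by gene cannot be set against the shares of windows. The share of all genes with a match was not computed. A match is a run of letters, not a measured site.

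Raw counts on genes summed to between 15230856 and 17315442 per library. In the F/A Cripto KO library only 3 of 18700 genes with counts had an odd count, so its counts were divided by 2 before any interval was computed. The total of that library, 15740587, and its raw counts below are given undivided. Tdgf1 itself had 18714 raw counts in WT serum/LIF, 1572 in WT F/A, 945 in Cripto KO serum/LIF and 86 in Cripto KO F/A, lower in Cripto KO than in WT in both media. Markers of naive ESCs summed to 46979 and 41935 raw counts in the serum/LIF libraries of WT and Cripto KO and to 144 and 180 in F/A, whereas markers of primed EpiSCs summed to 1329 and 1039 in serum/LIF and to 15156 and 7652 in F/A, with Pou3f1 at 0 in every library. Pou5f1, which EpiSCs share with ESCs, had 26857 raw counts in WT serum/LIF and 1810 in WT F/A. The list of general pluripotency markers that holds Pou5f1 summed to 51050 and 41934 raw counts in the serum/LIF libraries of WT and Cripto KO. In F/A its sums were 2681 and 2092. Trophoblast markers summed to 611 raw counts in WT serum/LIF, 3208 in WT F/A, 515 in Cripto KO serum/LIF and 3640 in Cripto KO F/A, and fibroblast markers to 1999, 1099, 1994 and 2984 in that order. The part of such cells in the changes below was not tested. In bulk RNA a change in the cells that carry a transcript and a change in the transcript per cell cannot be told apart.

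In the transition of WT cells 4 of the 6 transport genes rose at least 2-fold. Of the 18 enzymes from hexokinase to pyruvate kinase 8 fell at least 2-fold. Values below are the authors' quantile-normalized counts, called normalized counts, a fold is their ratio, an interval is the 95% Clopper-Pearson interval of the raw counts put on that scale, which covers counting error only, and a gene is counted as higher or lower at a fold of at least 2. Of the 30 genes 8 were at least 2-fold higher in WT F/A than in WT serum/LIF, beside 22.1% of all genes kept, and 9 were at least 2-fold lower, beside 20.9% of all genes. The median log2 change of the 30 genes was −0.50 and that of all genes −0.07. Among the 18 enzymes the median was −0.91, with 8 genes at least 2-fold lower and 3 higher, whereas 4 of the 6 transport genes were at least 2-fold higher and none lower, with a median of 1.55. In Cripto KO cells 10 of the 30 genes were at least 2-fold higher in F/A, beside 19.9% of all genes, and 7 were at least 2-fold lower, beside 19.4%. There the median of the 30 genes was 0.02, that of the 18 enzymes −0.40, with 5 lower and 4 higher, and that of the transport genes 1.54, with 5 of 6 higher. In each direction the share of the list stood near or somewhat above that of all genes, which says nothing particular to the list, and its transport genes and its enzymes lay on opposite sides of 0 by their medians.

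**Figure D1:**
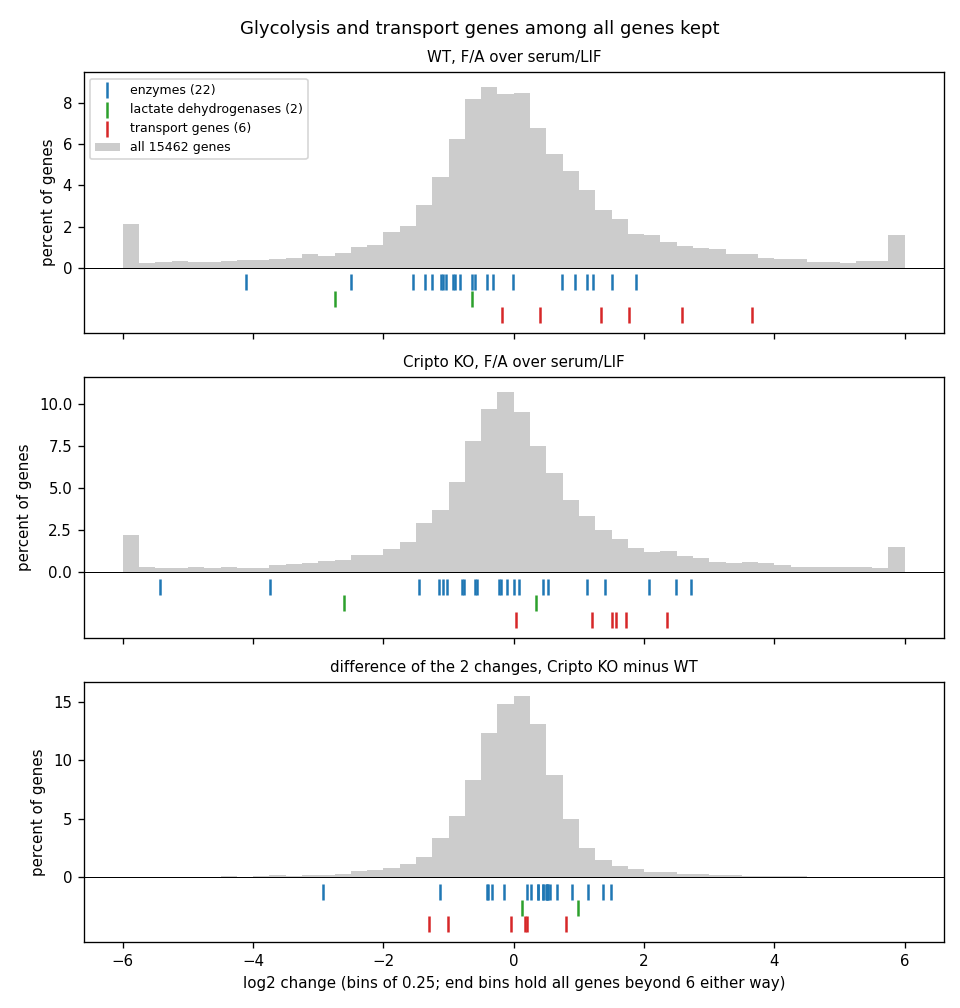
Distribution of log2 changes for all 15462 genes kept (grey bars, percent of genes per bin) with the members as ticks below: 22 enzymes including the PFKFB enzymes in blue, 2 lactate dehydrogenases in green and 6 transport genes in red. In WT the red ticks lie between −0.18 and 3.66 and most blue ticks left of 0, and in the lowest panel 21 of the 30 ticks lie right of 0.

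**Figure D2:**
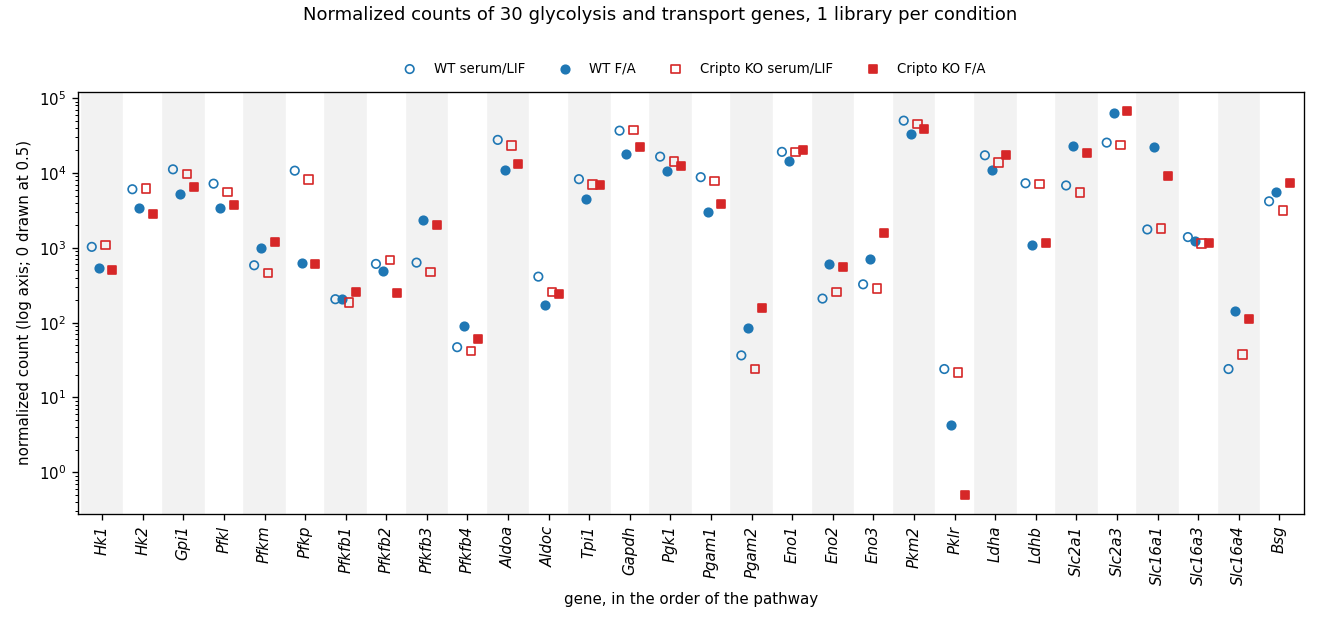
Normalized counts (log axis) of the 30 genes kept, in the order of the pathway, with WT in blue circles and Cripto KO in red squares, serum/LIF open and F/A filled, 1 library each. Slc16a1, Pfkp and Ldhb show wide gaps between open and filled symbols, and Pklr has 0 counts in Cripto KO F/A.

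Glucose uptake genes were higher in F/A in both genotypes. Slc2a1 encodes GLUT1, the widespread transporter of basal uptake. Its normalized count was 6816 in WT serum/LIF, 23195 in WT F/A, 5523 in Cripto KO serum/LIF and 18311 in Cripto KO F/A. The F/A libraries were thus 3.40-fold higher in WT (interval 3.31 to 3.50) and 3.32-fold higher in Cripto KO (3.21 to 3.43). Slc2a3 encodes GLUT3, a high-affinity transporter known from neurons and the early embryo. It had 25470 normalized counts in WT serum/LIF, 64315 in WT F/A, 23610.5 in Cripto KO serum/LIF and 67465 in Cripto KO F/A, which is 2.53-fold higher in WT F/A (2.49 to 2.56) and 2.86-fold higher in Cripto KO F/A (2.81 to 2.91). Per length, Slc2a3 took 87.1% of the pair in WT serum/LIF and 84.4% in WT F/A when the median length of the annotated transcripts was used, and 62.0% and 56.8% with the longest transcript, so it was the more abundant of the pair in both media. The Slc2a1 to Slc2a3 ratio, in which the lengths cancel, was 1.24 times as high in F/A as in serum/LIF in WT and 1.26 times in Cripto KO.

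Lactate transport held the largest rise of the list in WT and the largest gap between the genotypes among genes with at least 50 raw counts. Slc16a1 encodes MCT1, which carries lactate and pyruvate across the membrane in either direction. Its normalized count was 1760.2 in WT serum/LIF and 22214 in WT F/A, and 1799 in Cripto KO serum/LIF and 9203 in Cripto KO F/A. The 2 genotypes were alike in serum/LIF, where the ratio of Cripto KO to WT was 1.02 (0.957 to 1.09), and in F/A the Cripto KO library stood 2.41-fold below WT (2.34 to 2.49). Slc16a1 was therefore 12.6-fold higher in F/A in WT (12.0 to 13.2) and 5.12-fold higher in Cripto KO (4.84 to 5.40). Slc16a3 encodes MCT4, the low-affinity exporter of strongly glycolytic cells. It stayed between 1137 and 1393 normalized counts in the 4 libraries, with F/A to serum/LIF log2 changes of −0.18 in WT, which turned to 0.16 after a correction for transcript length, and 0.03 in Cripto KO. As a result the Slc16a1 to Slc16a3 ratio was 12.6 times as high in F/A as in serum/LIF in WT (11.5 to 13.8) and 4.83 times in Cripto KO (4.31 to 5.42). Which of the pair was the more abundant in serum/LIF depended on the length used, since Slc16a1 took 21.6% of the lactate transporters in WT serum/LIF by the median transcript and 54.5% by the longest, but in F/A it took most by either, 76.9% or 92.9% in WT and 62.3% or 86.9% in Cripto KO. Up to 15.6% of the exon bases of Slc16a3 overlap Csnk1d on the opposite strand, and whether the counting used strand is not given in the sources used here.

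Slc16a4 encodes MCT5, a related carrier whose substrates are less well known, and was a gene of few counts. It had 24.0 normalized counts in WT serum/LIF, 143 in WT F/A, 37.8 in Cripto KO serum/LIF and 112 in Cripto KO F/A. The F/A libraries were 5.97-fold higher in WT (3.98 to 9.24) and 2.96-fold higher in Cripto KO (1.91 to 4.63), and these wide intervals overlap. Bsg encodes basigin, the glycoprotein that brings MCT1 and MCT4 to the plasma membrane. Its normalized count was 4186 in WT serum/LIF, 5548 in WT F/A, 3163 in Cripto KO serum/LIF and 7289.5 in Cripto KO F/A, so that it was 1.33-fold higher in F/A in WT (1.27 to 1.38) and 2.30-fold higher in Cripto KO (2.20 to 2.42). Embigin (Emb), the related chaperone that also partners MCT1 and is not among the 31 genes, had 1727 normalized counts in WT serum/LIF, 22785 in WT F/A, 1877 in Cripto KO serum/LIF and 12020.5 in Cripto KO F/A. Emb thus showed, like Slc16a1, near equal levels of the genotypes in serum/LIF and a lower level in Cripto KO than in WT in F/A, by 1.90-fold.

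The subunits of lactate dehydrogenase parted. Ldha encodes the M subunit, common in tissues that make lactate, and Ldhb the H subunit, common in tissues that burn it. Ldhb had 7289.5 normalized counts in WT serum/LIF, 1094 in WT F/A, 7132 in Cripto KO serum/LIF and 1172 in Cripto KO F/A. It was 6.66-fold lower in F/A in WT (6.25 to 7.11) and 6.09-fold lower in Cripto KO (5.59 to 6.63), with hardly any gap between the genotypes. Ldha was far steadier, with 17244.5 normalized counts in WT serum/LIF, 11001 in WT F/A, 13763 in Cripto KO serum/LIF and 17455 in Cripto KO F/A. In WT it was 1.57-fold lower in F/A (1.53 to 1.61) and in Cripto KO 1.27-fold higher (1.23 to 1.30), neither reaching 2-fold. After a correction for transcript length these log2 changes were −0.25 and 0.52. The Ldha to Ldhb ratio was 3.75 times as high in F/A as in serum/LIF in WT (3.51 to 4.02) and 7.57 times in Cripto KO (6.93 to 8.27), and these intervals do not overlap. By the median transcript Ldhb took 23.2% of the pair in WT serum/LIF and 7.44% in WT F/A, 27.6% in Cripto KO serum/LIF and 4.79% in Cripto KO F/A, and by the longest transcript 35.5%, 12.8%, 41.0% and 8.39%. Ldha was the more abundant of the pair in each library by both lengths. By the union of annotated exons Ldha took 56.5% in WT serum/LIF, 83.0% in WT F/A and 88.6% in Cripto KO F/A. In Cripto KO serum/LIF it took 50.7%, close to level with Ldhb.

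**Figure D3:**
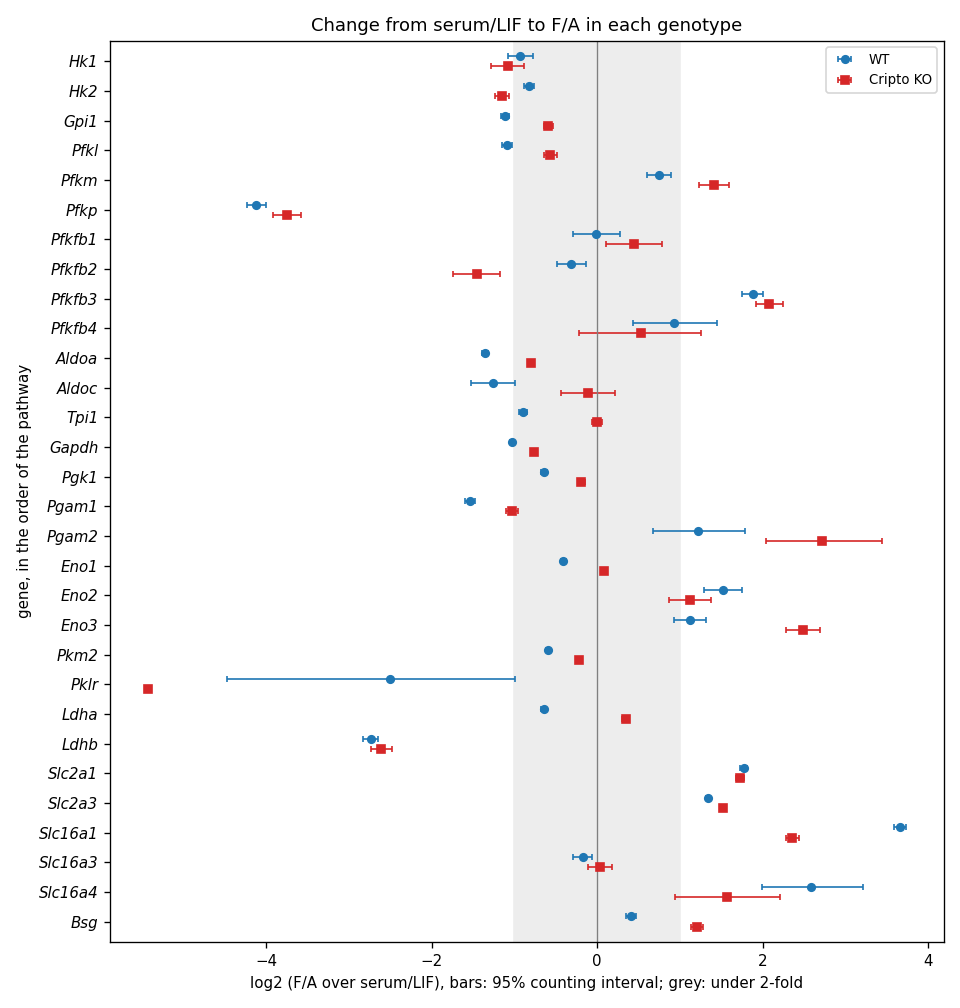
Log2 of the F/A over the serum/LIF normalized count for the 30 genes in WT (blue circles) and Cripto KO (red squares), with 95% counting intervals as bars and changes under 2-fold in the grey band, and no interval for Pklr in Cripto KO, which had 0 counts. Pfkp and Ldhb lie far to the left in both genotypes and Slc16a1 far to the right, at 3.66 in WT and 2.35 in Cripto KO.

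At the entry of the pathway hexokinase was lower in F/A. Hk1, the housekeeping form, had 1030 normalized counts in WT serum/LIF, 541 in WT F/A, 1086 in Cripto KO serum/LIF and 513 in Cripto KO F/A. Hk2, the form of insulin-sensitive and dividing cells, had 6066.5, 3439, 6244.5 and 2815 in the same order. Both were under 2-fold lower in WT F/A, Hk1 by 1.90-fold and Hk2 by 1.76-fold, and over 2-fold lower in Cripto KO F/A, Hk1 by 2.12-fold (1.85 to 2.43) and Hk2 by 2.22-fold (2.09 to 2.35). The Hk2 to Hk1 ratio was close to level across the media, at 1.07 times in WT (0.954 to 1.19) and 0.870 times in Cripto KO (0.750 to 1.01). Hk2 took between 68.7% and 72.9% of the family by the median transcript and between 80.1% and 83.2% by the longest. By the union of annotated exons it took between 88.1% and 90.1%. Gpi1, the isomerase that follows, had 11199.8 normalized counts in WT serum/LIF, 5166 in WT F/A, 9698 in Cripto KO serum/LIF and 6446 in Cripto KO F/A. It was 2.17-fold lower in F/A in WT (2.10 to 2.24) and 1.5-fold lower in Cripto KO (1.45 to 1.57), and 16.5% of its exon bases overlap a gene model on the opposite strand.

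Phosphofructokinase, the committed step, held the gene with the deepest fall. Pfkp, which encodes the platelet-type subunit, had 10742 normalized counts in WT serum/LIF, 620 in WT F/A, 8197 in Cripto KO serum/LIF and 612.5 in Cripto KO F/A. It was 17.3-fold lower in F/A in WT (16.0 to 18.8) and 13.4-fold lower in Cripto KO (11.9 to 15), the largest changes of the list among genes with at least 50 raw counts. In F/A the genotypes met, at a ratio of Cripto KO to WT of 0.988 (0.858 to 1.14). Pfkl, of the liver-type subunit, was lower too but far less, with 7202 normalized counts in WT serum/LIF, 3394 in WT F/A, 5607 in Cripto KO serum/LIF and 3782 in Cripto KO F/A, which is 2.12-fold lower in WT (2.04 to 2.21) and 1.48-fold lower in Cripto KO (1.41 to 1.56). Pfkm, of the muscle-type subunit, went the other way, with 584.5, 981, 458 and 1215 in that order, 1.68-fold higher in WT F/A (1.51 to 1.86) and 2.65-fold higher in Cripto KO F/A (2.34 to 3.0). The Pfkp to Pfkl ratio was 8.42-fold lower in F/A in WT (7.68 to 9.23) and 8.79-fold lower in Cripto KO (7.75 to 9.96). In serum/LIF Pfkp and Pfkl made up most of the family in WT, at 50.1% and 49.1% by the median transcript and at 52.8% and 42.7% by the longest. By the union of annotated exons the shares were 39.3% and 54.4%, so which was ahead depended on the length used. In F/A Pfkl took 84.5% by the median and 65.5% by the longest in WT, and 84.6% and 63.9% in Cripto KO. The share of Pfkm in F/A depended strongly on the length, at 5.22% by the median and 24.9% by the longest in WT, and 5.91% and 27.4% in Cripto KO.

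PFKFB enzymes make and remove the sugar phosphate that switches phosphofructokinase on. Pfkfb3, the form with the strongest bias to making it, had 634 normalized counts in WT serum/LIF, 2327 in WT F/A, 474 in Cripto KO serum/LIF and 1997 in Cripto KO F/A. It was 3.67-fold higher in F/A in WT (3.36 to 4.01) and 4.22-fold higher in Cripto KO (3.77 to 4.72). Pfkfb2, the heart form, had 610 normalized counts in WT serum/LIF, 490.2 in WT F/A, 689.5 in Cripto KO serum/LIF and 252 in Cripto KO F/A. The Cripto KO F/A library stood below the other 3, being 2.73-fold lower than its serum/LIF counterpart (2.26 to 3.33) and 1.94-fold lower than WT F/A (1.59 to 2.38), whereas the WT libraries differed by 1.24-fold (1.1 to 1.4). Pfkfb3 took 43.9% of the family per length in WT serum/LIF and 75.4% in WT F/A, and 37.3% and 73.7% in Cripto KO, each within 3 percentage points of the value with the longest transcript. Pfkfb1 lay between 187 and 254 normalized counts and Pfkfb4 between 41.8 and 89.8, and neither reached 2-fold in any comparison, though Pfkfb4 passed it in WT, at a log2 change of 1.07, after the correction for transcript length.

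From aldolase to phosphoglycerate kinase 3 of 5 genes were at least 2-fold lower in WT F/A, namely Aldoa, Aldoc and Gapdh. None was in Cripto KO F/A, where Aldoa and Gapdh were lower by less than 2-fold. The shares of all genes at least 2-fold lower were 20.9% in WT and 19.4% in Cripto KO. Aldoa, the main aldolase, had 27707 normalized counts in WT serum/LIF, 10814 in WT F/A, 23195 in Cripto KO serum/LIF and 13310.5 in Cripto KO F/A, 2.56-fold lower in WT (2.50 to 2.62) and 1.74-fold lower in Cripto KO (1.70 to 1.79). Aldoc, the brain form, had 412, 173, 258.5 and 240 in that order, 2.38-fold lower in WT (1.99 to 2.87) and 1.08-fold lower in Cripto KO (0.863 to 1.35). Aldoa held between 97.8% and 98.8% of the family by the median transcript. Tpi1, which interconverts the trioses, had 8273 normalized counts in WT serum/LIF, 4441 in WT F/A, 7008 in Cripto KO serum/LIF and 6999 in Cripto KO F/A, so WT F/A stood below the other 3 libraries, 1.86-fold under WT serum/LIF (1.80 to 1.93). Gapdh, the dehydrogenase that makes NADH, had 36823, 17999.5, 37828.5 and 22214 in the same order, 2.05-fold lower in F/A in WT (2.01 to 2.08) and 1.70-fold lower in Cripto KO (1.67 to 1.74). Near-identical copies of Gapdh, at 95% identity or more over at least 300 bases, stand at 47 other places of the genome, so reads of Gapdh and its pseudogenes may be split. By the same search Pgk1, Pgam1 and Eno1 have 4 such copies each and Gpi1, Tpi1, Ldha and Ldhb 1 each. Their reads may be split too, to differing degrees. The longest match was 339 of the 1766 bases searched for Ldha and 1285 of 1304 for Ldhb. Pgk1, the first ATP-making kinase, had 16545 normalized counts in WT serum/LIF, 10589.5 in WT F/A, 14146 in Cripto KO serum/LIF and 12368.5 in Cripto KO F/A, and did not reach 2-fold in either genotype.

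Among the mutases and enolases Pgam1 fell and Pgam2, Eno2 and Eno3 rose in F/A in both genotypes. Pgam1, the main mutase, had 8799 normalized counts in WT serum/LIF, 3025 in WT F/A, 7875 in Cripto KO serum/LIF and 3856 in Cripto KO F/A. It was 2.91-fold lower in F/A in WT (2.79 to 3.03) and 2.04-fold lower in Cripto KO (1.94 to 2.15). Pgam2, the muscle form, had 36.5 normalized counts in WT serum/LIF, 85 in WT F/A, 24 in Cripto KO serum/LIF and 157.5 in Cripto KO F/A, 2.33-fold higher in WT (1.59 to 3.45) and 6.56-fold higher in Cripto KO (4.11 to 10.8). Pgam1 still held 94.2% of the pair per length in WT F/A and 91.6% in Cripto KO F/A. Eno1, the widespread enolase, had 19162 normalized counts in WT serum/LIF, 14440 in WT F/A, 19064 in Cripto KO serum/LIF and 20227 in Cripto KO F/A, under 2-fold apart throughout, and its lower value in WT F/A (log2 change −0.41) became 0.05 after a correction for transcript length. That correction took Eno1 at its median transcript length of 578 bases, against 2027 for the longest, so the corrected value is uncertain. Eno3, the muscle enolase, had 325, 706.5, 284 and 1590 in that order, 2.17-fold higher in F/A in WT (1.91 to 2.48) and 5.59-fold higher in Cripto KO (4.86 to 6.45). Eno2, the neuronal enolase, had 210, 599, 256 and 556, 2.86-fold higher in WT (2.44 to 3.35) and 2.17-fold higher in Cripto KO (1.82 to 2.59). Eno1 held 94.0% of the enolases in WT F/A and 93.7% in Cripto KO F/A by the median transcript, and 90.8% and 88.8% by the longest. By the union of annotated exons it held 82.0% and 77.5%.

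Of 6 muscle markers, given beside the muscle-type genes Pfkm, Pgam2 and Eno3, 2 rose in F/A. The genes of the list (Myod1, Myog, Actc1, Acta1, Ckm and Myh3) summed to 107 raw counts in WT serum/LIF, 1541 in WT F/A, 45 in Cripto KO serum/LIF and 2294 in Cripto KO F/A. Nearly all of the sums in F/A came from Actc1, with 317 raw counts in WT and 880 in Cripto KO, and Acta1, with 1222 and 1414, while Myh3 had 91 raw counts in WT serum/LIF and 0 in both F/A libraries. Myod1 was at 0 in all 4 libraries, Myog was at 0 in both F/A libraries, and Ckm had 2 raw counts in WT F/A and 0 in Cripto KO F/A. The part of other cell types in the values of these muscle-type genes was not tested.

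Pyruvate kinase, the last ATP-making step, came almost wholly from Pkm2, a gene whose M1 and M2 splice forms gene counts cannot part. It had 50091 normalized counts in WT serum/LIF, 33083 in WT F/A, 44956 in Cripto KO serum/LIF and 38532.5 in Cripto KO F/A. On this scale it was 1.51-fold lower in F/A in WT (1.49 to 1.54) and 1.17-fold lower in Cripto KO (1.15 to 1.19). Its raw counts spanned more, at 69604, 26918, 52114 and 36592 in that order, and scaled by library totals the WT log2 change was −1.19, past 2-fold, against −0.60. Pklr, the liver and red cell form, had 29 raw counts in WT serum/LIF, 4 in WT F/A, 22 in Cripto KO serum/LIF and 0 in Cripto KO F/A, and thus was at least 3.55-fold lower in Cripto KO F/A than in Cripto KO serum/LIF. Markers of red cells and liver were scarce, at 9, 8, 1 and 14 raw counts over 6 genes in that order, and 22.0% of the exon bases of Pklr overlap Hcn3 on the opposite strand.

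**Figure D4:**
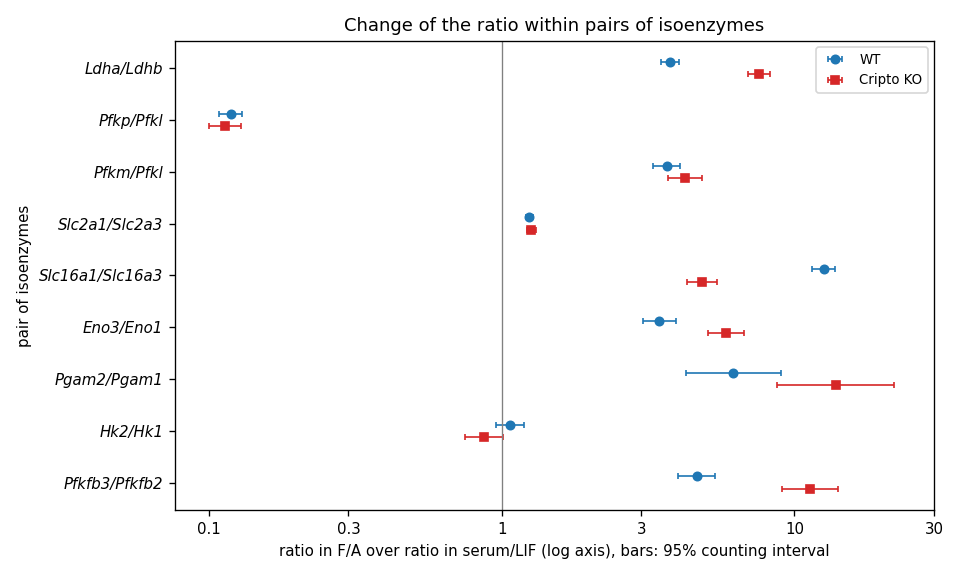
Ratio of 9 pairs of isoenzymes in F/A divided by the same ratio in serum/LIF (log axis), WT in blue circles and Cripto KO in red squares, with 95% counting intervals from the raw counts. Gene length cancels in these values, and the pairs run from 0.119 for Pfkp to Pfkl to 12.6 for Slc16a1 to Slc16a3 in WT.

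Side by side, the ratios within families moved in the same direction in both genotypes for each pair but Hk2 to Hk1, whose intervals include 1. The Eno3 to Eno1 ratio was 3.46 times as high in F/A in WT (3.03 to 3.94) and 5.85 times in Cripto KO (5.08 to 6.73). The Pgam2 to Pgam1 ratio was 6.19 times as high in WT (4.27 to 8.96) and 13.8 times in Cripto KO (8.74 to 21.9). The Pfkfb3 to Pfkfb2 ratio was 4.64 times as high in WT (4.0 to 5.37) and 11.3 times in Cripto KO (9.04 to 14.0). The order of levels across families rested on the length used. By the median transcript Slc2a3 took 43.9% of the summed level of the 31 genes in WT F/A and 15% in WT serum/LIF, but by the longest transcript 12.2% and 2.98%, and Pkm2 then came at the top with 14.7% and 20.6%.

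Between the genotypes few of the 30 genes passed 2-fold, at shares near those of all genes. In serum/LIF none of the 30 genes was at least 2-fold higher or lower in Cripto KO than in WT, beside 2.86% of all genes higher and 2.75% lower. There the median log2 ratio of Cripto KO to WT was −0.18, with 23 of 30 genes below 0, and that of all genes 0, and the largest differences were those of Aldoc, 1.59-fold lower in Cripto KO (1.36 to 1.87), and of Slc16a4, 1.57-fold higher (0.941 to 2.65). In F/A 1 gene, Eno3, was at least 2-fold higher in Cripto KO, at 2.25-fold (2.03 to 2.50), beside 4.59% of all genes. Lower by at least 2-fold in Cripto KO F/A were 2 genes, Slc16a1 at 2.41-fold and Pklr, beside 5.69% of all genes, and the difference of Pklr, 0 against 4 raw counts, was not detectable at this depth. The median in F/A was 0.19, with 18 of 30 genes above 0, and 0 for all genes. Below 2-fold, Ldha was 1.59-fold higher in Cripto KO F/A (1.54 to 1.63), Tpi1 1.58-fold (1.51 to 1.65), Eno1 1.40-fold (1.36 to 1.44) and Bsg 1.31-fold (1.26 to 1.37).

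**Figure D5:**
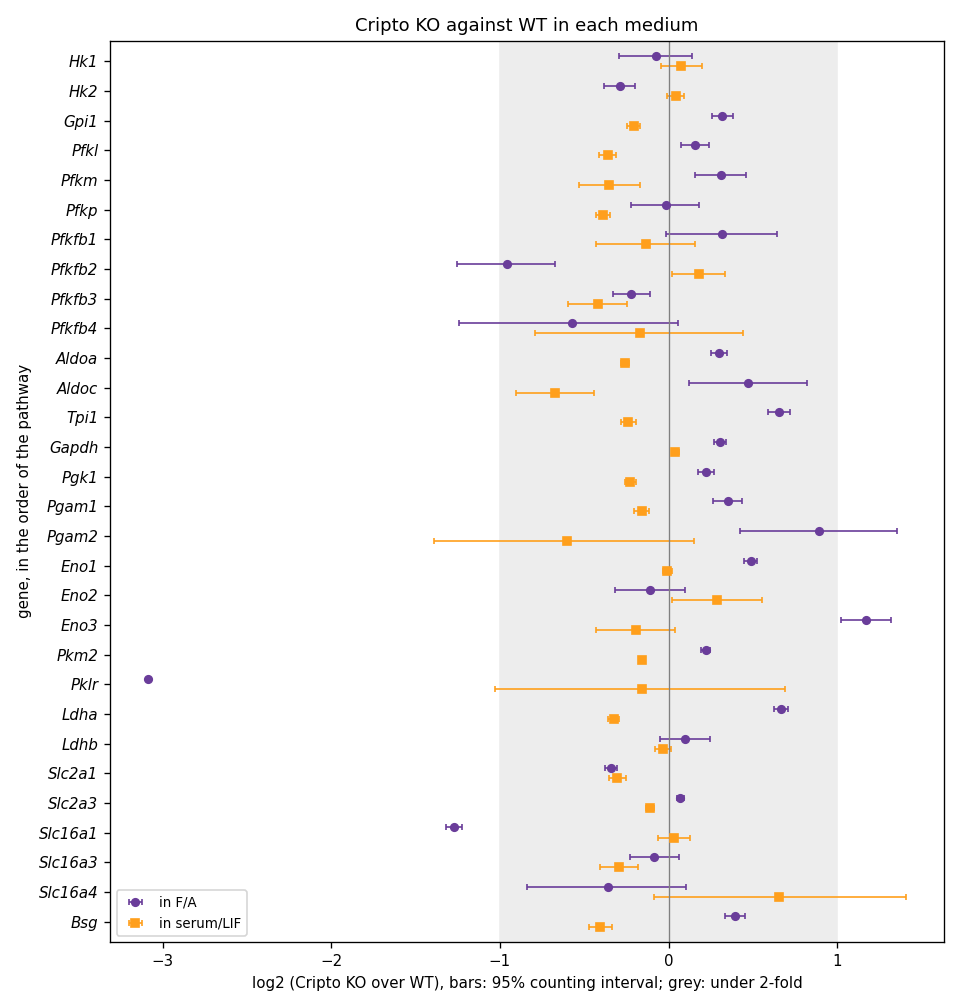
Log2 of the Cripto KO over the WT normalized count for the 30 genes in F/A (purple circles) and in serum/LIF (orange squares), with 95% counting intervals as bars and differences under 2-fold in the grey band. Most enzyme genes lie right of 0 in F/A and left of it in serum/LIF, and Slc16a1 lies at −1.27 in F/A.

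The difference of the transitions was taken as the log2 change of Cripto KO minus that of WT. It was at or above 1 for 3 genes, Pgam2 at 1.49, Eno3 at 1.36 and Aldoc at 1.15, beside 7.69% of all genes. For 4 genes it was at or below −1, Pklr, Slc16a1 at −1.30, Pfkfb2 at −1.14 and Slc16a4 at −1.01, beside 9.38% of all genes. Ldha, at 0.99, and Tpi1, at 0.90, lay just inside. With the 3 other scalings Ldha passed the threshold, at 1.08 to 1.09, and Slc16a4 did not, at −0.86 to −0.87. Over the 30 genes the median difference was 0.37, with 21 above 0, and over the 18 enzymes it was 0.50, with 14 above 0, beside −0.00 for all genes. The WT and Cripto KO transitions share no library, but each shares its libraries with the comparisons of genotypes, so the same values stand behind both accounts.

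Transcript length moved with these changes. Over all genes the median log2 change of WT was −0.34 for transcripts of up to 924 bases and 0.28 for those of 2925 bases or more, and the median difference of the transitions was 0.20 and −0.24. Taking off the running median over transcript length left a median of −0.27 for the 30 genes in WT, 0.17 in Cripto KO and 0.18 for the difference, left 5 in place of 9 genes at least 2-fold lower in WT F/A, without Gpi1, Pfkl, Aldoc and Gapdh, and put Eno3 at 0.96 between the genotypes in F/A. The lengths were medians of the annotated transcripts, far below the longest for Eno1 (578 and 2027 bases), Pfkl (597 and 3730) and Ldha (645 and 1766). Such genes were corrected as short ones, so their corrected values are uncertain. The part of transcript length, or of the RNA quality that can move with it, was not tested further.

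Genes that feed from or into glycolysis were taken from lists of other isoenzymes and neighbouring pathways, whose counts stand beside shares of all genes of 22.1% higher and 20.9% lower in WT F/A and of 19.9% and 19.4% in Cripto KO F/A. Of 24 other isoenzymes and transporters of the same families kept by the filter, 9 were at least 2-fold higher in WT F/A and 5 lower, and 7 and 6 in Cripto KO F/A. Besides Emb these included Slc16a10, an aromatic amino acid carrier, with 64.2 normalized counts in WT serum/LIF, 218 in WT F/A, 58.2 in Cripto KO serum/LIF and 141 in Cripto KO F/A. Slc2a8, a glucose transporter of inner membranes, was 2.46-fold lower in WT F/A and 1.89-fold lower in Cripto KO F/A. Of 15 genes for the entry of pyruvate into mitochondria none was at least 2-fold higher and 6 were lower in WT F/A, and 5 were lower in Cripto KO F/A. Pcx, which makes oxaloacetate from pyruvate, had 1374.5 normalized counts in WT serum/LIF, 260.2 in WT F/A, 1212 in Cripto KO serum/LIF and 319.8 in Cripto KO F/A. Pdk1, a kinase that holds pyruvate dehydrogenase back, had 2872.5, 722, 2974 and 553.5 in the same order, and Mpc1, a subunit of the mitochondrial pyruvate carrier, 338, 105.5, 344 and 97.8. All 3 were thus lower in F/A in both genotypes, Pcx by 5.28-fold in WT and 3.79-fold in Cripto KO, Pdk1 by 3.98-fold and 5.37-fold, and Mpc1 by 3.20-fold and 3.52-fold. In the pentose phosphate pathway 4 of 12 genes were at least 2-fold lower in F/A and none higher in either genotype, led by Prps1, Taldo1 and Rpe at log2 changes of −1.81, −1.72 and −1.35 in WT and of −1.23, −1.30 and −1.67 in Cripto KO. Of 14 genes of glycogen and galactose 2 were higher and 2 lower in each genotype, among them Gyg, the glycogen primer, 2.40-fold higher in WT F/A and 3.57-fold in Cripto KO F/A, and Pgm2, 3.72-fold and 2.15-fold lower, and Galt of galactose use, 3.0-fold and 2.68-fold lower. Among 9 genes of the NADH shuttles 2 were lower in WT F/A, Slc25a12 by 4.83-fold and Slc25a13 by 2.0-fold, and 1, Slc25a12, in Cripto KO F/A by 4.19-fold, and of 5 genes of gluconeogenesis 1 was lower in WT F/A and 2 in Cripto KO F/A, among them Tigar, which draws sugar phosphate away from glycolysis, by 2.07-fold in Cripto KO and 1.98-fold in WT.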

How the data were processed

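RNA of 4 cultures was sequenced as paired-end reads, 1 library each. The authors aligned the reads to mm9 (NCBIM37) with TopHat2 2.0.13, counted them on Ensembl genes with HTSeq 0.6.1p1 and deposited raw counts per gene. They also deposited a normalized signal, the full quantile-normalized counts of the genes kept by a proportion filter, and each column was matched to its culture by name, with 0 columns left without a sample. Symbols, coordinates and lengths came from an annotation of the same build that named 98.9% of the genes. Log2 changes were computed from the normalized signal, with 0 replaced by 0.5, and genes were counted at a fold of at least 2. Intervals are 95% Clopper-Pearson intervals of raw counts and, for ratios of ratios, 95% normal intervals on the log scale. The detection limit was 3 counts, and 6 in the F/A Cripto KO library, whose counts were divided by 2. The simulated replicates that the authors used for their own calls were not made here, since they hold no biological spread. Levels between genes were set per length, by the median annotated transcript, or by the longest, added after seeing the data. The union of annotated exons was used where it is named. For some genes the median is far below the longest, as for Hk1, at 716 and 4278 bases, so shares by the median are uncertain. The correction for transcript length used the median too and is uncertain for the same genes. Library totals ran from 15230856 to 17315442, with that of the F/A Cripto KO library taken before the division by 2, so its depth in the intervals was lower. Intervals are narrow for abundant genes and wide for scarce ones.

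The 31 genes and all lists were chosen with earlier results of these data known. All 4 library values are given for members at least 2-fold different in some comparison with at least 50 raw counts in the highest library and for the most abundant member of each family. Genes of other lists are named at a fold of at least 2 with at least 200 raw counts, at most 3 per direction, list and comparison, and Ppargc1b, Hif1a, Myc and Mycn whatever their values. Of the genes that this rule for other lists names, 1 is not reported here. Alternatives were folds of 1.5 and 3, an unfiltered table, genes averaging 50 raw counts or more, a pseudocount of 5, scaling by library totals, by DESeq2 1.42.0 size factors or by edgeR 4.0.16 TMM factors (both under R 4.3.3), a running median over transcript length in windows of 501 genes, the F/A Cripto KO counts halved before normalization, and, added later, only members with a count in every library. Python 3.11.15 was used (pandas 2.3.3, scipy 1.17.1, numpy 2.4.6, matplotlib 3.10.9), near-identical copies were searched with blastn 2.17.0, and the intervals and counts were tested on simulated data.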

Additional observations from a re-analysis of the deposited data

Results flagged for a closer look

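Ldha and Eno1 moved in opposite directions in the 2 genotypes, with counting intervals that leave out no change in each. The log2 change of Ldha from serum/LIF to F/A was −0.65 in WT and 0.34 in Cripto KO, and that of Eno1 was −0.41 in WT and 0.09 in Cripto KO. Since each condition is 1 library, this difference was not tested, none of the 4 changes reached 2-fold, and the WT change of Eno1 turned to 0.05 after the correction for transcript length. After the same correction the change of Ldha was −0.25 in WT and 0.52 in Cripto KO. The correction used the median transcript length, far below the longest for both genes, so these corrected values are uncertain.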

How the results depend on the processing

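No member that was at least 2-fold different in a comparison changed direction under any alternative run. Of the values of single members under the alternatives, 1167 kept their side of the 2-fold threshold, 9 crossed it upward and 19 downward. This tally overstates the stability. Values for genes averaging 50 raw counts or more were the main values and could not cross, and those of the unfiltered table repeated the scaling by library totals. The upward crossings were those of Pkm2, Ldha and Pfkfb4 only. With 5 added to every value, 1 member was at least 2-fold lower in Cripto KO F/A than in WT F/A and the transition of 2 members was lower in Cripto KO. With a mean of at least 50 raw counts, and with members counted in every library only, that count in F/A was also 1, since Pklr was left out. At a fold of 1.5, 15 members were lower in WT F/A (32.5% of all genes), 4 higher in Cripto KO F/A than in WT F/A (11.9%), 1 higher and 2 lower in Cripto KO serum/LIF (7.54% and 7.08%), and 7 had a higher transition in Cripto KO (17.9%). At a fold of 3, 4 members were higher and 3 lower in the WT transition (14.6% and 12.7% of all genes), 5 and 3 in that of Cripto KO (13.3% and 12.1%), 0 and 1 in Cripto KO against WT in F/A (2.22% and 2.36%), and 0 and 1 in the difference of the transitions (3.38% and 3.82%). After the correction for transcript length 5 members were lower in WT F/A and 0 higher in Cripto KO F/A, Pgam1 in Cripto KO stood at −0.95 and Aldoc in the difference of the transitions at 0.95, both just under 2-fold, and Pfkfb4 passed 2-fold in WT at 1.07. Under the 3 other scalings Pkm2 passed 2-fold in WT (−1.18 to −1.19), Ldha passed it in the difference of the transitions (1.08 to 1.09), and Hk1 in Cripto KO (−0.97 to −0.99) and Slc16a4 in the difference (−0.86 to −0.87) did not. The median of all genes moved by less than 0.1 under the other scalings. That of the members in the WT transition ranged from −0.76 to −0.27 over the alternatives. The WT log2 change ranged from −1.48 to −1.13 for Aldoa, −1.29 to −0.80 for Gapdh, −0.76 to −0.25 for Ldha and −0.59 to 0.05 for Eno1, a spread that the counting intervals do not cover. No paired analysis was possible because each condition is 1 library and the labels give no replicate numbers, and for the same reason no library could be left out. The counts of scarce genes, Pklr, Slc16a4, Pgam2 and Pfkfb4, limit their folds most, and nothing here measures the spread between cultures.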

Other observations

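Regulators of glycolysis moved in both directions. Of 20 such genes kept by the filter 5 were at least 2-fold higher and 5 lower in F/A in each genotype, beside shares of all genes of 22.1% and 20.9% in WT and 19.9% and 19.4% in Cripto KO. Myc had 234 normalized counts in WT serum/LIF, 1244.5 in WT F/A, 409.8 in Cripto KO serum/LIF and 1144 in Cripto KO F/A, 5.32-fold higher in WT F/A and 2.79-fold higher in Cripto KO F/A. Mycn, the related factor abundant in ESCs, had 2634.5, 1544.5, 3910 and 2788 in the same order, higher in Cripto KO than in WT in both media. Mycl1 and Lin28a were also higher in F/A, by 6.68-fold and 4.54-fold in WT and by 3.70-fold and 2.74-fold in Cripto KO, and so were Lin28b, by 3.42-fold in Cripto KO, and Prkaa2, by 2.53-fold in WT and 3.12-fold in Cripto KO. Hif1a had 2456.5 normalized counts in WT serum/LIF, 4519 in WT F/A, 2929 in Cripto KO serum/LIF and 3776 in Cripto KO F/A, under 2-fold apart. Epas1, its relative, had 1281, 399.9, 1207 and 236 and was lower in F/A by 3.20-fold in WT and 5.12-fold in Cripto KO, as were Stat3 by 2.75-fold and 2.32-fold and Esrrb, which had 15699 raw counts in WT serum/LIF and 13 in WT F/A. Ppargc1b, a co-activator of mitochondrial genes, lay between 93.2 and 117 normalized counts in the 4 libraries.

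Hypoxia response genes outside glycolysis also split. Of 16 such genes 3 were at least 2-fold higher and 6 lower in WT F/A, and 2 and 4 in Cripto KO F/A, beside the same shares of all genes. Vegfa had 1992.5 normalized counts in WT serum/LIF, 6114.5 in WT F/A, 2344 in Cripto KO serum/LIF and 4441 in Cripto KO F/A, and Ddit4 had 1476, 4091, 2490.1 and 4757.5. Both were over 2-fold higher in WT F/A, by 3.07-fold and 2.77-fold, and under 2-fold higher in Cripto KO F/A, by 1.89-fold and 1.91-fold. Bnip3, Egln3 and Kdm3a stood lower in F/A, by 4.25-fold, 4.30-fold and 2.30-fold in WT and by 3.84-fold, 4.97-fold and 2.81-fold in Cripto KO.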
